A study of Mus musculus with 25 samples.

Results

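The oocyte Nlrp genes described here are Nlrp2, Nlrp4a, Nlrp4b, Nlrp4e, Nlrp4f, Nlrp9a, Nlrp9b, Nlrp9c and Nlrp14 of the mouse. They were taken by name, with earlier results of these data known. Both expression tables list all 9, out of 35561 genes listed in either table and 23825 listed in both. Nlrp4c, Nlrp4g and Nlrp5 are also listed in both and are described further below. RNA was measured by Smart-seq2, which amplifies full-length cDNA from very little material, in C57BL/6 oocytes and embryos grown in culture. There were 25 libraries in 6 groups, namely metaphase II (MII) oocytes with VCD (n = 5) and with PBS (n = 4), 2-cell embryos with VCD (n = 4) and with PBS (n = 4), and morulae with VCD (n = 4) and with PBS (n = 4). VCD is a small molecule added to the maturation and embryo culture media, and PBS, a buffered salt solution, is its control; no source used here gives the full name or dose of VCD. The MII oocytes of both agents were matured in culture for 16 h. Embryos of all 4 embryo groups came from in vitro fertilization lasting 6 h, so no group is free of culture. The labels state neither how many oocytes or embryos made 1 library nor whether libraries came from separate animals or cultures. The spread behind each p-value is therefore that between libraries and may be technical.

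NLR proteins carry a nucleotide-binding NACHT domain and a leucine-rich repeat region, and the Nlrp branch adds a pyrin domain at its start. Some members, such as Nlrp3, are sensors of innate immunity that assemble inflammasomes, in which the adaptor Pycard recruits caspase-1. Another set, expanded by gene duplication in rodents, is made mainly in the growing oocyte. Its best known product, Nlrp5 (Mater), is a core part of the subcortical maternal complex, a protein assembly under the egg surface that the early embryo needs. Most RNA of the oocyte is destroyed between maturation and the start of the embryo's own transcription, which in the mouse is broad at the 2-cell stage.

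The 9 genes fall into 4 subfamilies. On GRCm38 with the GENCODE M21 annotation, 8 lie on chromosome 7 and Nlrp4f lies on chromosome 13 (chr13:65177111-65205977, minus strand). A chromosome 7 cluster holds Nlrp9c (chr7:26322473-26403700, minus strand), Nlrp4a (chr7:26435113-26476142, plus strand) and Nlrp9a (chr7:26535023-26575615, plus strand) side by side. The others on that chromosome are Nlrp2 (chr7:5298547-5351035, minus strand), Nlrp4b (chr7:10687789-10730168, plus strand), Nlrp9b (chr7:19991465-20073306, plus strand), Nlrp4e (chr7:23301192-23362277, plus strand) and Nlrp14 (chr7:107166990-107198102, plus strand). Values refer to whole genes, summed over exons. The coding sequences of the Nlrp4 genes were 77.8% to 85.9% identical to each other in aligned bases, those of the Nlrp9 genes 82.3% to 87.4%, and those of different subfamilies 57.1% to 61.3%.

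Because paralogs can split reads, the words of 50 bases in each gene's transcripts were searched for in the transcripts of all other genes, and the share found there was counted. It lay between 0% and 7.79% for 8 of the genes. For Nlrp4e it was 36.7%, shared mainly with Gm16443, Gm8486 and Gm8685, so the level of Nlrp4e is uncertain. Gm16443 was at most 0.0796 FPKM in any library. Gm8486 averaged 0.301 FPKM in VCD morulae and 0.386 FPKM in PBS morulae, against 0.0369 and 0.0413 FPKM in the VCD and PBS 2-cell groups. Further genes overlap members: Gm5065 lies antisense over the beginning of Nlrp2 and Gm45379 lies within Nlrp4b. The strand setting of the counting is not given, so their reads cannot be told apart from those of Nlrp2 and Nlrp4b where they overlap. Gm5065 averaged 114 FPKM in both MII groups, above Nlrp2 itself.

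Promoter windows of 8 of the genes were found in RefSeq (GRCm38.p6; 250 bases before to 50 bases after a transcription start), with 10 windows in all. Those below are shown because they hold both the closest pairs of the family and the window of Nlrp4e, the gene with the highest level at the morula stage. All read 5′ to 3′ on the gene's strand, and capitals mark the E-box CANNTG and the CCAAT box, searched on both strands (a CCAAT box on the other strand reads ATTGG). An E-box is the element bound by basic helix-loop-helix factors, among them Figla of the oocyte. The windows are chr7:26435364-26435663 for Nlrp4a, chr7:10687543-10687842 for Nlrp4b, chr7:26534773-26535072 for Nlrp9a, chr7:26403651-26403950 (minus strand) for Nlrp9c and chr7:23300942-23301241 for Nlrp4e.
Nlrp4a: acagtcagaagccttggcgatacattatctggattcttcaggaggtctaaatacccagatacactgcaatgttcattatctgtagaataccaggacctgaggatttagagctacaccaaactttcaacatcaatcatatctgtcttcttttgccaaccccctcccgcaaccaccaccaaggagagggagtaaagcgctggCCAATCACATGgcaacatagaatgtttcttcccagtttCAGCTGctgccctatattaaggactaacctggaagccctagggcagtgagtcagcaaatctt
Nlrp4b: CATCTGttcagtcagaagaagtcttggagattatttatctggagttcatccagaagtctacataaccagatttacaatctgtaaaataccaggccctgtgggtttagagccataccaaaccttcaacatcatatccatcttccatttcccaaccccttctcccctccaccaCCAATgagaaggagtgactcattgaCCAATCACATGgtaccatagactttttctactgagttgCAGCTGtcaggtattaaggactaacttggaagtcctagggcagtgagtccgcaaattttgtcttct
Nlrp9a: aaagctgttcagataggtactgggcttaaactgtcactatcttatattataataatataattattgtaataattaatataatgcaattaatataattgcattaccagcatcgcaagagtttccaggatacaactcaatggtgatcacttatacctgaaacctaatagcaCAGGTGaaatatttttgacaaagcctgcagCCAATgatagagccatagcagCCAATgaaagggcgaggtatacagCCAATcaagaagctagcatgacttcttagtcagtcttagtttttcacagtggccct
Nlrp9c: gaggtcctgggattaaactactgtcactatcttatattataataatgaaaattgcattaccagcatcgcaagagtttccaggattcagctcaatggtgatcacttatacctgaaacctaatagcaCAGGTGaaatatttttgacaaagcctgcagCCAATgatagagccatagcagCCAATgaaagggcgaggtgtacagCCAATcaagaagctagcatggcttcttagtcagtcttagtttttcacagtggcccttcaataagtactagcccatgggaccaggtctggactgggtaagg
Nlrp4e: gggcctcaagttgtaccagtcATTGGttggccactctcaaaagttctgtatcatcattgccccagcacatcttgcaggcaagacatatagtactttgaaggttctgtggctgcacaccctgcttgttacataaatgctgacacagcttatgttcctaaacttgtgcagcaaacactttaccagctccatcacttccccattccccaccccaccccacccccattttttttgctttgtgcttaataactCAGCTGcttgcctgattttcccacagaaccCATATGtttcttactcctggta

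The windows of Nlrp9a and Nlrp9c were 96.8% identical over 252 aligned bases, and each held 3 CCAAT boxes and 1 E-box. Those of Nlrp4a and Nlrp4b were 80.4% identical over 275 aligned bases, and in both a CCAAT box ran directly into the E-box CACATG. The window of Nlrp4e aligned with that of Nlrp4a over only 26 bases. Of 32851 RefSeq promoter windows, 72.3% held an E-box, 37.4% a CCAAT box and 11.7% CCAAT boxes at 2 or more places. TAATTG, an element bound by the oocyte factor Nobox, occurred in 8.0% of all windows; among the members it was at 2 places in the window of Nlrp9a and at 1 in that of Nlrp9b. These matches describe letters only.

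In MII oocytes all 9 genes were expressed well above the level at which single reads matter, and Nlrp14 led by far. FPKM, the unit deposited, is a level per length and per library total, so levels can be set beside each other between genes, but a change in a gene's share of the library cannot be told apart from a change in the RNA per oocyte or embryo. In bulk libraries, fewer cells and less RNA per cell cannot be told apart either. In VCD oocytes Nlrp14 had 1438, 1634, 1320.2, 1189 and 1595 FPKM, against 1591, 1641, 1643 and 2015 FPKM in PBS oocytes. The highest PBS library stood alone, and the groups overlapped. Nlrp14 ranked 25th of 25158 listed genes by its mean in VCD oocytes and 20th in PBS oocytes. In the mouse, maternal Nlrp14 is needed for embryos to pass the first cleavage stages.

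The order of the other genes in oocytes was nearly the same with either agent. Nlrp9c followed with 312 ± 39.5 FPKM in VCD oocytes (SD, n = 5) and 333 ± 24.7 in PBS oocytes (n = 4). Then came Nlrp4f (234 ± 42.7 and 242 ± 22.5 FPKM in VCD and PBS oocytes) and Nlrp9a (205 ± 31.2 and 214 ± 16.2 FPKM). Nlrp4f is a mouse partner of the subcortical maternal complex. Nlrp4b had 177 ± 14.8 and 176 ± 24.1 FPKM and Nlrp4a 151 ± 14.7 and 153 ± 8.59 FPKM. The lowest were Nlrp2, a maternal effect gene in the mouse, with 73.6 ± 13.1 and 72.3 ± 9.57 FPKM, Nlrp4e with 65.0 ± 10.3 and 61.5 ± 7.02 FPKM, and Nlrp9b with 63.3 ± 5.23 and 66.8 ± 5.84 FPKM. Neighbours in this order overlapped between libraries, with exceptions: Nlrp14 was above Nlrp9c and Nlrp4a above Nlrp2 in every library of both agents, and in PBS oocytes Nlrp9c was above Nlrp4f.

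**Figure D1:**
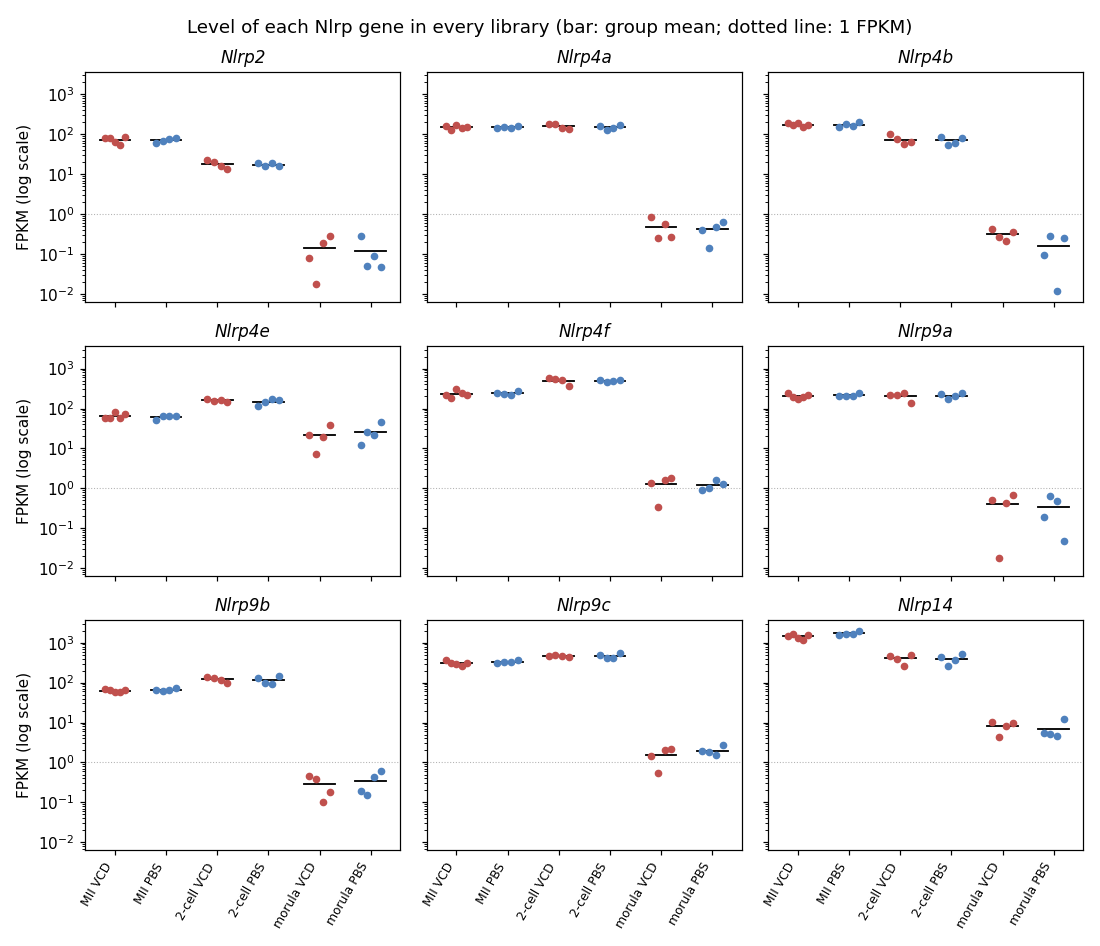
FPKM on a log axis for each of the 9 genes; every point is 1 library (red, VCD; blue, PBS), bars are group means and the dotted line is 1 FPKM. In every panel the libraries of VCD and PBS overlap within a stage, and the morula groups lie below both earlier stages; Nlrp4e stays between 7.10 and 46.6 FPKM in morulae.

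In 2-cell embryos the order was another one, with Nlrp4f and Nlrp9c at the top. Nlrp4f had 578, 544, 527 and 361 FPKM in VCD embryos, against 525, 473, 488 and 519 FPKM in PBS embryos. Nlrp9c had 452, 481, 457 and 442 FPKM in VCD embryos, against 503, 423, 419 and 556 FPKM in PBS embryos. Nlrp14 had 471, 400.3, 264 and 477 FPKM in VCD embryos, against 439, 265, 372 and 510.4 FPKM in PBS embryos. These 3 genes overlapped each other in level, and all 3 were above Nlrp9a in every library of both agents. Nlrp9a had 205 ± 43.9 FPKM with VCD and 210 ± 30.9 with PBS (SD, n = 4 each), followed by Nlrp4a (162 ± 21.8 and 153 ± 17.8 FPKM), Nlrp4e (159 ± 14.2 and 149.6 ± 25.8) and Nlrp9b (122 ± 17.4 and 115 ± 25.3). In mouse intestine Nlrp9b is known as a sensor of rotavirus RNA. Nlrp4b had 74.6 ± 20.7 FPKM with VCD and 71.2 ± 14.9 with PBS, and Nlrp2, the lowest, 18.6 ± 4.16 and 17.6 ± 1.85 FPKM.

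The oocytes and the embryos are in separate tables, so the step between them was described and not tested. Set side by side, the family split. Nlrp14, Nlrp2 and Nlrp4b had a lower mean in 2-cell embryos than in MII oocytes: the ratio of 2-cell to MII means was 0.281 with VCD and 0.230 with PBS for Nlrp14, 0.252 and 0.243 for Nlrp2, and 0.422 and 0.405 for Nlrp4b. Nlrp4a (1.07 and 0.9998) and Nlrp9a (0.998 and 0.982) were near level, with overlapping libraries. Nlrp4e (2.44 and 2.43), Nlrp4f (2.15 and 2.07), Nlrp9b (1.93 and 1.72) and Nlrp9c (1.47 and 1.42) had a higher mean in 2-cell embryos, with no overlap between the stages for either agent. Of 935 genes at 50 FPKM or more in PBS oocytes, 34.8% had a higher mean in PBS 2-cell embryos, and the median ratio was 0.695. Dividing by median-ratio size factors moved the 2-cell means of 6 of the genes by more than 1 SD in at least 1 group, each upward, for example Nlrp4f in PBS embryos to 581 FPKM. These factors were taken separately for oocytes and for embryos. They scale 2-cell libraries against morulae and do not align them with oocytes, so they do not bear on the ratios above.

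Ratios taken within a library do not depend on its scale and showed the same split. Nlrp14 over Nlrp9c was 4.63 ± 0.513 in VCD oocytes and 5.16 ± 0.271 in PBS oocytes (SD, n = 5 and 4), and 0.883 ± 0.231 in VCD and 0.826 ± 0.135 in PBS 2-cell embryos (n = 4 each). Within the Nlrp4 subfamily, Nlrp4f over Nlrp4b was 1.33 ± 0.226 in VCD and 1.38 ± 0.140 in PBS oocytes, and 6.96 ± 1.70 in VCD and 7.23 ± 1.197 in PBS 2-cell embryos. For the pair with nearly identical promoter windows, Nlrp9c over Nlrp9a was 1.53 ± 0.162 and 1.56 ± 0.0468 in VCD and PBS oocytes, and 2.33 ± 0.564 and 2.27 ± 0.198 in VCD and PBS 2-cell embryos. In none of these 3 ratios did an MII library reach the range of the 2-cell libraries.

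Taken as a share of the summed FPKM of the 9 genes, Nlrp14 made up 52.7% ± 3.38 in VCD oocytes and 56.6% ± 0.842 in PBS oocytes. In 2-cell embryos it made up 19.2% ± 5.03 with VCD and 18.7% ± 2.73 with PBS, while Nlrp4f held 23.8% ± 3.13 and 24.2% ± 2.10, and Nlrp9c 21.9% ± 1.88 and 22.7% ± 1.11. In morulae Nlrp4e, which in oocytes held 2.40% ± 0.410 with VCD and 2.03% ± 0.195 with PBS, made up 60.8% ± 7.60 with VCD and 67.8% ± 8.21 with PBS. The 9 genes together held 0.902% ± 0.0664 of all FPKM in VCD oocytes and 1.008% ± 0.0984 in PBS oocytes, 0.611% ± 0.0669 and 0.591% ± 0.0818 in VCD and PBS 2-cell embryos, and 0.00939% ± 0.00486 and 0.0106% ± 0.00576 in VCD and PBS morulae.

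**Figure D2:**
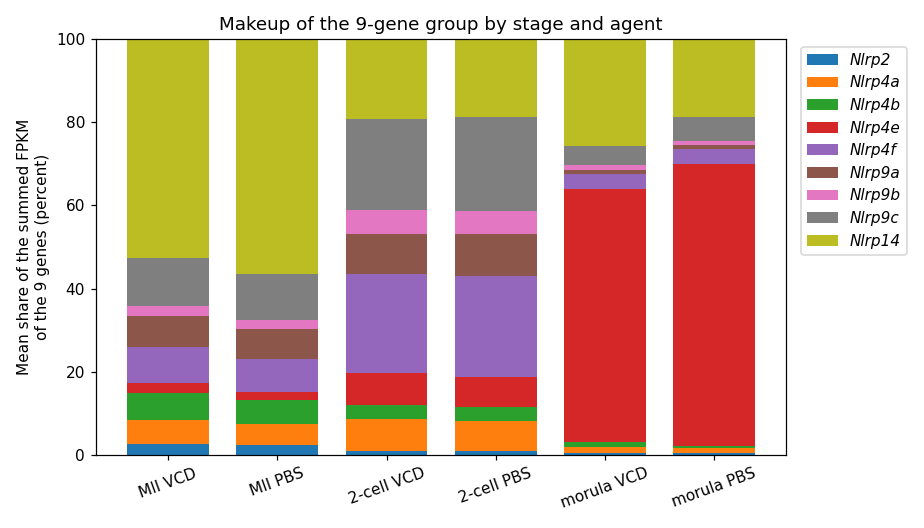
Mean share of each gene in the summed FPKM of the 9 genes, in percent, for the 6 groups (VCD left of PBS at each stage). Nlrp14 is the largest segment in MII oocytes, Nlrp4f and Nlrp9c are the largest in 2-cell embryos, and Nlrp4e is the largest in morulae, at 60.8% with VCD and 67.8% with PBS.

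Morulae were compared with 2-cell embryos within each agent, in 1 table, with limma on log2(FPKM + 1) and a Benjamini-Hochberg adjustment over all genes with 1 FPKM or more in at least 4 libraries. All 9 genes had a lower level in morulae with either agent. In VCD embryos 43.9% of 12355 genes tested were called lower in morulae, and in PBS embryos 45% of 12517, so a lower level alone was common. Nlrp2, Nlrp4a, Nlrp4b, Nlrp9a and Nlrp9b reached 1 FPKM in no morula library and entered the fit only through the 2-cell libraries, so their calls had to follow. Nlrp4f with either agent and Nlrp9c with VCD reached 1 FPKM in only 3 morula libraries, so they also passed the filter only with the 2-cell libraries. Nlrp4e and Nlrp14 with either agent, and Nlrp9c with PBS, passed it on the morula libraries alone.

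Nlrp4f had the largest fold of the 9 on this scale, and its p-values are subject to that limit. It had 1.36, 0.336, 1.62 and 1.82 FPKM in VCD morulae, and 0.911, 1.05, 1.60 and 1.32 FPKM in PBS morulae. These are 21 to 117 reads per library, at 0.256% and 0.243% of the VCD and PBS 2-cell means. The log2 fold change from limma was −7.82 with VCD (SE 0.26, adjusted p = 9.32e-10) and −7.83 with PBS (SE 0.13, adjusted p = 2.68e-11). Nlrp9c had 1.42, 0.542, 2.01 and 2.14 FPKM in VCD morulae and 1.89, 1.84, 1.56 and 2.68 FPKM in PBS morulae. Against 2-cell embryos it fell by 7.56 with VCD (SE 0.22, adjusted p = 5.32e-10) and by 7.32 with PBS (SE 0.15, adjusted p = 6.18e-11) on the log2 scale, by limma. The p-value of Nlrp9c with VCD is subject to the same limit, and that with PBS is not. For both genes every morula library was below every 2-cell library.

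Nlrp14 had 10.04, 4.34, 8.26 and 9.79 FPKM in VCD morulae, against 5.59, 5.28, 4.52 and 12.4 FPKM in PBS morulae. The morula means were 2.01% of the 2-cell mean with VCD and 1.75% with PBS, and the log2 fold changes by limma were −5.49 (SE 0.27, adjusted p = 1.18e-08) and −5.70 (SE 0.29, adjusted p = 1.2e-08). Within libraries Nlrp14 over Nlrp9c was again high, at 5.93 ± 1.89 in VCD and 3.34 ± 0.862 in PBS morulae.

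Nlrp4e kept the highest level of the 9 at this stage. It had 21.5, 7.10, 19.5 and 38.9 FPKM in VCD morulae, and 11.99, 25.8, 21.8 and 46.6 FPKM in PBS morulae, which is 390 to 2893 reads. In 2-cell embryos it had 174, 152, 166 and 143 FPKM with VCD, and 116, 144, 174 and 164 FPKM with PBS. The morula means were 13.7% of the 2-cell mean with VCD and 17.7% with PBS, where no other member exceeded 2.01%. The log2 fold change by limma was −3.02 (SE 0.39, adjusted p = 2.23e-05) with VCD and −2.59 (SE 0.33, adjusted p = 2.14e-05) with PBS, and the groups did not overlap. Its spread among morula libraries was wide, with the highest library several times the lowest with either agent. The words that Nlrp4e shares with other genes were noted above; the part of those genes in this level was not tested. In mouse oocytes a knockdown of Nlrp4e is known to impair early development.

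The 5 genes under 1 FPKM in morulae still had reads in every morula library, in some very few, and the origin of these reads was not tested. Nlrp4a had 20 to 70 reads in VCD libraries and 12 to 58 in PBS libraries, Nlrp4b 15 to 33 and 1 to 22, and Nlrp9a 1 to 37 and 3 to 39. Nlrp9b had 6 to 30 and 10 to 41 reads, and Nlrp2 1 to 16 and 3 to 21. Their morula means were between 0.198% and 0.776% of the 2-cell mean with VCD and between 0.162% and 0.671% with PBS. A floor of 3 reads corresponds to between 0.0295 and 0.0563 FPKM for these genes in morula libraries, and some libraries of Nlrp2, Nlrp4b and Nlrp9a were at or below it. The log2(FPKM + 1) scale understates such folds: by limma, the log2 fold change of Nlrp9a was −7.19 with VCD and −7.31 with PBS, but −8.93 and −9.14 with a pseudocount of 0.1 FPKM. Of the 935 genes at 50 FPKM or more in PBS oocytes, 17.9% had a PBS morula mean below 1% of the 2-cell mean, and 27.4% was the median.

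**Figure D3:**
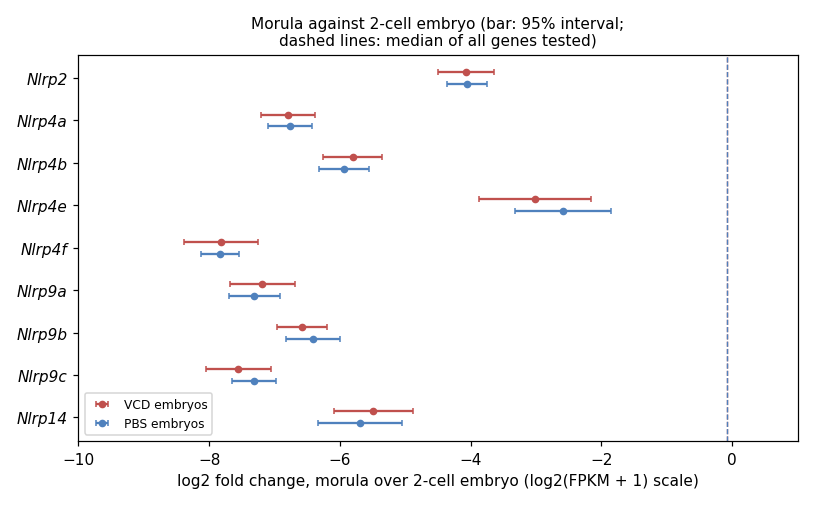
Log2 fold change of morulae over 2-cell embryos on the log2(FPKM + 1) scale for each gene, with 95% intervals from limma (red, VCD embryos; blue, PBS embryos); dashed lines mark the median of all genes tested, −0.08 with either agent. All 9 genes lie far left of the dashed lines, and Nlrp4e, at −3.02 with VCD and −2.59 with PBS, lies nearest to them.

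Dividing by median-ratio size factors brought the median of all genes tested to −0.33 with VCD and −0.36 with PBS (log2), against −0.08 on the deposited scale, and no direction among the 9 turned. The fold changes above are on the deposited scale and were not centred on this median. The median depends on the scaling and also on which genes pass the filter. Without PBS replicate 1 of the 2-cell embryos, for example, it was 0.70 with PBS.

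The question of the experiment, whether VCD in the medium changes the transcripts, was put to the 9 genes at each stage, and none was called. In MII oocytes 0 of 9 passed an adjusted p of 0.05 by limma, where 0.0115% of 8715 genes did. Nlrp14 came nearest, at 1435 ± 186 FPKM in VCD oocytes and 1723 ± 196 FPKM in PBS oocytes (SD, n = 5 and 4), a log2 fold change of −0.27 (SE 0.10, 95% interval −0.50 to −0.04, unadjusted p = 0.0266, adjusted p = 0.999 by limma). Across all genes 245 had an unadjusted p below 0.05. Without PBS replicate 4, the highest library, the log2 fold change of Nlrp14 was −0.19, and over all alternatives its adjusted p ranged from 0.853 to 0.99998. The other 8 lay between −0.10 (Nlrp9c) and 0.07 (Nlrp4e) on the log2 scale.

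In 2-cell embryos 0 of 9 genes passed, as did 0% of 11369 genes tested by limma (391 had an unadjusted p below 0.05, and voom also called 0). The log2 fold changes lay between −0.05 for Nlrp9a and 0.10 for Nlrp9b. The widest 95% interval, that of Nlrp14, ran from −0.49 to 0.54. In morulae 4 of the genes could be tested and 0 passed, where 0.01% of 9959 genes did. Nlrp4e had a log2 fold change of −0.33 (SE 0.48, 95% interval −1.38 to 0.71), Nlrp9c −0.28 (SE 0.26), Nlrp14 0.24 (SE 0.32) and Nlrp4f −0.00 (SE 0.26), each with an adjusted p of 0.99997 by limma. The interval of Nlrp4e takes in a log2 change of −1, so a fall of that size was not excluded at this spread.

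The VCD effect in morulae minus that in 2-cell embryos was also tested, and 0 of 9 genes passed, as did 0% of 14144 genes by limma (502 had an unadjusted p below 0.05, and voom also called 0). The differences lay between −0.43 (Nlrp4e, 95% interval −1.61 to 0.75) and 0.21 (Nlrp14, 95% interval −0.70 to 1.11), each with an adjusted p of 0.9995. The difference of Nlrp4b, a gene of 1 to 33 reads in morula libraries, depended on the scale: it was 0.14 on log2(FPKM + 1), 0.77 with a pseudocount of 0.1 FPKM and 1.52 with voom, and its adjusted p was at least 0.965 under every alternative.

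**Figure D4:**
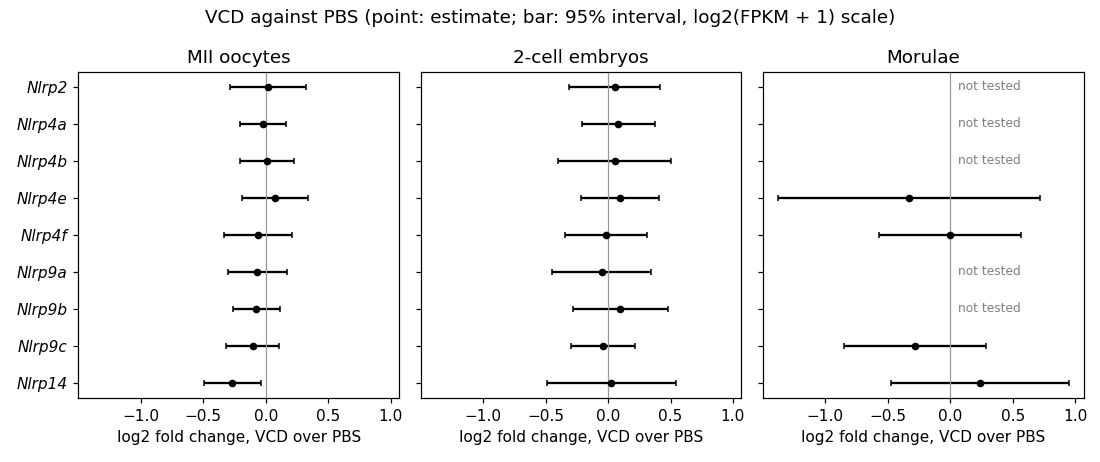
Log2 fold change of VCD over PBS on the log2(FPKM + 1) scale for each gene in MII oocytes, 2-cell embryos and morulae, with 95% intervals from limma; genes under the filter on low values are marked as not tested. The intervals include 0 except that of Nlrp14 in MII oocytes (−0.50 to −0.04), and those of morulae are the widest.

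Some libraries moved many of the 9 genes together. PBS replicate 4 of the oocytes had the highest value of its group for 9 of the 9 genes, where it was highest for 34.2% of the 937 genes at 50 FPKM or more. In the same oocyte group PBS replicate 1 had the lowest value for 7 of the 9, where it was lowest for 27.2% of those genes; without it the log2 fold change of Nlrp14 was −0.30. VCD replicate 2 of the morulae had the lowest value for 7 of the 9, where it was lowest for 27.4% of 1221 such genes. None of the 9 reached that level in VCD morulae, where Nlrp4e was highest with a mean of 21.8 FPKM. That share is therefore from more abundant genes and is not a like comparison. VCD replicate 4 of the 2-cell embryos was lowest for 7 of the 9, where it was lowest for 33.7% of 1053 such genes. Without VCD replicate 2 the log2 fold change of Nlrp4e in morulae was 0.09. Members of 1 library share its RNA, so these counts are not independent over genes.

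The rest of the pathway was described from lists of genes. Of 10 other Nlrp genes, 7 were listed in the tables. Nlrp5 averaged 369 ± 100.2 FPKM in VCD oocytes and 422 ± 26.7 in PBS oocytes, 69.7 ± 15.0 and 61.2 ± 10.9 in VCD and PBS 2-cell embryos, and 2.43 ± 0.611 and 1.75 ± 1.40 in VCD and PBS morulae. Nlrp4c and Nlrp4g, duplicates of the Nlrp4 subfamily, averaged between 13.0 and 18.0 FPKM in oocytes. The immune sensors and remaining relatives Nlrp3, Nlrp6, Nlrp10 and Nlrp12 averaged at most 0.601 FPKM in any group. Between morulae and 2-cell embryos 3 of these genes were tested and 3 were lower with either agent, beside 43.9% of all genes with VCD and 45% with PBS. Nlrp4g was below 1 FPKM in every morula library and entered the fit only through the 2-cell libraries, so its call was fixed. Nlrp4c averaged 5.66 FPKM in VCD morulae and 3.31 FPKM in PBS morulae, against 11.8 and 10.8 FPKM in VCD and PBS 2-cell embryos.

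Of 15 genes of inflammasomes and their partners, 5 could be tested between morulae and 2-cell embryos. Of these, 5 were called lower with either agent, beside 43.9% of all genes with VCD and 45% with PBS. For 4 of them, Casp8, Naip1, Nlrc4 and Nek7, no morula library reached 1 FPKM, so they were tested only through the 2-cell libraries and the call was fixed. Txnip, an inhibitor of thioredoxin, averaged 3.52 FPKM in VCD morulae and 1.013 FPKM in PBS morulae. In VCD and PBS 2-cell embryos it averaged 14.6 and 13.2 FPKM. Its PBS morula libraries ran from 0.656 to 1.76 FPKM, so with PBS it too passed the filter only with the 2-cell libraries. With VCD it passed on the morula libraries alone. Other genes of the list, singled out after their values were seen and not tested, had a higher mean in morulae. Il18, a cytokine matured by caspase-1, averaged 1.87 and 1.41 FPKM in VCD and PBS morulae, against 0.282 and 0.174 FPKM in VCD and PBS 2-cell embryos. Pycard averaged 0.959 and 1.09 FPKM in VCD and PBS morulae, against 0.160 and 0.0811 FPKM in VCD and PBS 2-cell embryos.

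In the subcortical maternal complex 5 of 6 tested genes were lower in morulae with either agent, beside 43.9% of all genes with VCD and 45% with PBS. The remaining 1, Khdc3, was called higher, where 5060 of 12355 genes were with VCD and 5343 of 12517 with PBS. Khdc3 was below 1 FPKM in every 2-cell library and was tested only through the morula libraries, so its call was fixed; it averaged 30.5 FPKM in VCD morulae and 12.05 FPKM in PBS morulae. Zbed3 had the largest log2 fold change of the list, −10.94 with VCD and −10.90 with PBS by limma. Of 4 proteins linked to Nlrp14 in the mouse, Uhrf1 and Dnmt1, which maintain DNA methylation, were lower in morulae. Uhrf1 and, in the complex, Ooep with either agent and Nlrp5 with PBS did not reach 1 FPKM in every morula library, so they too passed the filter only with the 2-cell libraries. The other two were decided by the filter: the importin Kpna7 was below 1 FPKM in every morula library, and Slc8b1, the mitochondrial sodium-calcium exchanger, was below 1 FPKM in every 2-cell library. Slc8b1 averaged 30.4 ± 12.9 FPKM in VCD morulae and 23.9 ± 4.70 FPKM in PBS morulae (SD, n = 4 each), against at most 0.0592 FPKM in any earlier group. The oocyte transcription factors Lhx8, Nobox and Sohlh2 were likewise below 1 FPKM in every morula library, so their lower calls were fixed, as was that of Nod2, the 1 gene tested, with VCD, of 6 other NLR genes. Of 10 oocyte reference genes, 7 of 9 tested were lower with VCD and 8 of 10 with PBS, beside 43.9% and 45% of all genes. The filter fixed the call of Zar1 with either agent and of Bmp15 and Mos with PBS. Gdf9, Zp1 and Zp2 with either agent, and Bmp15 with VCD, did not reach 1 FPKM in every morula library. They too passed the filter only with the 2-cell libraries. No gene of these lists was called between VCD and PBS at any stage.

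The genes most alike in pattern were sought over the 6 group means, each taken as a share of the gene's highest group mean, among 4579 genes at 5 FPKM or more in PBS oocytes, with the root mean square (RMS) difference as the measure. Nearest to Nlrp14 were Gm14641 (RMS difference 0.0140), Epp13 (0.0142) and Gm34121 (0.0260). For genes whose highest group was a 2-cell group, the nearest to Nlrp4f was Slc15a5 (0.00951), followed by Gm29016 (0.0145) and Tmem232 (0.0159). Nearest to Nlrp9c were Adarb2 (0.00956), Gm10509 (0.0167) and Arid5b (0.0175), and nearest to Nlrp9b Akap7 (0.0132), the formin Fhod3 (0.0147) and the oogenesin Oog3 (0.0191). Nlrp4a was most like Gm6578 (0.0127), Khdc1b (0.0143) and Gm20043 (0.0165). Nlrp4e, the member that kept part of its level in morulae, was nearest to Cops9 (0.0173), a subunit of the COP9 signalosome, Ube2g1 (0.0175), a ubiquitin-conjugating enzyme, and Cpeb4 (0.0213), which binds the cytoplasmic polyadenylation element. Likeness of this kind says nothing of shared function, and 6 points are few.

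The libraries held 15075832 to 20998296 reads or fragments as implied by the FPKM steps, with 8257 to 8941 genes at 1 FPKM or more in oocytes, 11072 to 11995 in 2-cell embryos and 9602 to 10335 in morulae. The 6 oocyte markers summed to between 5565 and 8482 FPKM in oocytes, the 5 markers of 2-cell embryos to between 915 and 1353 FPKM at that stage against at most 45.3 FPKM in morulae, and the 7 morula markers to between 175 and 309 FPKM in morulae, with Sox2 at or near 0. Leukocyte markers summed to at most 8.85 FPKM; Ptprc and Adgre1 were at or near 0, while Cd68 averaged 4.40 and 4.52 FPKM in VCD and PBS morulae and Lyz2 3.13 and 3.77 FPKM in VCD and PBS 2-cell embryos. Sperm markers summed to at most 2.15 FPKM. Of 12 cumulus and granulosa markers, 2 averaged 1 FPKM or more in the oocyte groups: Cyp19a1, with 8.35 FPKM in VCD and 8.85 FPKM in PBS oocytes, and Kitl, with 3.52 and 3.16 FPKM. Amh and Ptx3 were at or near 0. In morulae Amhr2 averaged 13.7 FPKM with VCD and 11.4 FPKM with PBS. The sum was between 11.1 and 14.8 FPKM in oocytes and between 10.2 and 19.5 FPKM in morulae.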

How the data were processed

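The authors deposited FPKM, a level per kilobase of gene and per library total, in 2 tables, 1 for oocytes (25158 genes) and 1 for embryos (34228 genes); Bowtie2 2.2.3, TopHat2 2.0.12 and the chicken build galGal4 are named in the submitters' processing notes. All gene identifiers are mouse Ensembl identifiers, so no coordinate was taken from that build; no source used here names the counting tool or annotation. Symbols, exon lengths and coordinates came from GENCODE M21 on GRCm38.

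FPKM times exon length gave whole multiples of 1 step per library (90.6% to 93.4% of values under 200 reads within 0.01 of whole), which gave reads for all 9 genes in all 25 libraries. Reads without molecular identifiers cover counting error only.

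Groups were compared with limma 3.58.1 in R 4.3.3 (variance trend, log2(FPKM + 1), a filter of 1 FPKM reached by at least 4 of the libraries compared, Benjamini-Hochberg adjustment over all genes tested, threshold 0.05). Only the groups compared entered a fit. The test was checked on simulated data. All 9 genes are named; list genes are given as counts and at most 4 examples, and the 3 genes most alike for Nlrp14 and for genes highest outside MII groups. The genes and lists were chosen with earlier results of these data known. Alternatives were a pseudocount of 0.1 FPKM, no filter, median-ratio size factors, limma-voom on recovered reads, a replicate block, all embryo groups in 1 fit, and leaving out each library.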

Additional observations from a re-analysis of the deposited data

Results flagged for a closer look

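Dixon's test was applied to the 54 sets of values (9 genes in 6 groups), of which chance alone flags about 1 in 20, and 4 sets had a library that stood apart. In PBS oocytes replicate 4 was above the others for Nlrp14, at 2015 FPKM against 1591 to 1643, for Nlrp4a, at 166 FPKM against 148 to 149, and for Nlrp9a, at 238 FPKM against 202 to 207. In PBS morulae replicate 4 was above the others for Nlrp14, at 12.4 FPKM against 4.52 to 5.59. The first 3 are from 1 library and are not independent of each other.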

How the results depend on the processing

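The 31 counts of called genes obtained with all libraries kept under every alternative the values reported: 0 for VCD against PBS at each stage and for the difference between stages, 9 for morulae against 2-cell embryos. With the replicate block, from the replicate numbers of the labels, 0 of the genes were called in MII oocytes (VCD replicate 5 left out), 0 in 2-cell embryos and 0 in morulae. Same-numbered libraries deviated together with r between −0.33 and −0.11 for oocytes, −0.15 and 0.16 for 2-cell embryos, and −0.0505 and 0.38 for morulae, so the numbers are not shown to pair them. Over all genes the block called 0, 1 and 1. Leaving out a replicate gave between 4 and 9 called for morulae against 2-cell embryos with VCD and between 4 and 9 with PBS: the 4 arises without any 1 of the 2-cell libraries, when 5 genes no longer reach the filter, and on the genes tested with all libraries, an alternative chosen after seeing the data, 9 were called each time. For those 5 genes the call had to follow from the filter, so this alternative is no test of them. Nlrp4f with either agent and Nlrp9c with VCD also passed the filter only with the 2-cell libraries. With all libraries 43.9% of all genes tested were called lower in morulae with VCD and 45% with PBS. Uncalled log2 fold changes changed sign, most of them near 0 but that of Nlrp4e in morulae not, and the cause was not tested. In MII oocytes Nlrp2 was −0.0031 with size factors and −0.0357 with the replicate block, and Nlrp4b −0.0074 with size factors. For the difference between stages Nlrp2 was 0.088 with a pseudocount of 0.1, 0.0098 with size factors and 0.089 with voom; Nlrp4a was 0.068, 0.0103 and 0.12; and Nlrp4f was −0.085 with a pseudocount of 0.1 and −0.12 with voom. With 1 replicate left out, the MII values ran from −0.066 to 0.11 for Nlrp2, −0.065 to 0.028 for Nlrp4a, −0.048 to 0.093 for Nlrp4b, −0.013 to 0.12 for Nlrp4e and −0.16 to 0.015 for Nlrp4f. In 2-cell embryos they ran from −0.054 to 0.18 for Nlrp2, −0.12 to 0.17 for Nlrp4b, −0.019 to 0.18 for Nlrp4e, −0.092 to 0.13 for Nlrp4f, −0.15 to 0.12 for Nlrp9a, −0.0104 to 0.21 for Nlrp9b, −0.10 to 0.035 for Nlrp9c and −0.15 to 0.22 for Nlrp14. In morulae they ran from −0.67 to 0.093 for Nlrp4e and −0.12 to 0.24 for Nlrp4f. For the difference they ran from −0.14 to 0.086 for Nlrp2, −0.14 to 0.051 for Nlrp4a, −0.14 to 0.25 for Nlrp4f and −0.052 to 0.27 for Nlrp9a. Low counts in morulae limit Nlrp2, Nlrp4a, Nlrp4b, Nlrp9a and Nlrp9b, whose folds grew with a smaller pseudocount.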
